A study of Homo sapiens with 4 samples.

Results

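When a ribosome reads through the stop codon that ends an annotated coding sequence (the normal termination codon, NTC), it continues in frame into the 3′UTR until it meets the first in-frame stop codon there (the 3′TC). The stretch between them is the extension, and it encodes the C-terminal tail that readthrough would add to the protein. Transcripts were taken as having a long extension when the deposited tables gave at least 1 in-frame 3′TC and more than 200 nt up to and including it. By this rule 936 of the 9271 transcripts listed had a long extension, 7889 had a shorter one and 446 had no in-frame 3′TC. The rule uses lengths and sequence only and takes no read count.

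RPFs (ribosome protected fragments, the pieces of mRNA that ribosomes shield from nuclease) were sequenced from HEK293T, a cell line derived from human embryonic kidney and carrying the large T antigen of simian virus. There were 2 untreated libraries (A and B) and 2 libraries (A and B) from cells given G418 at 0.5 mg/mL for 24 hr. G418 is an aminoglycoside, a drug class that sits in the ribosomal A site and lowers the accuracy with which codons are read. Reads on mRNAs ranged from 2440204 to 6082600 per library, with untreated B the shallowest. VIM, NEFM and NEFL, which HEK293T cells express, were listed in all 4 libraries, and ALB, PTPRC, MYH7 and INS, markers of liver, blood, muscle and pancreas, were not listed. CDH2, fixed with the same list as a gene of these cells, was not listed either.

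Termination is a competition between release factor eRF1, which recognizes all stop codons, and near-cognate tRNAs. UGA is known as the leakiest stop codon and UAA as the tightest, and the nucleotide that follows the stop codon (+4) matters, with C favoring readthrough. A ribosome that has read through an NTC is expected to stop at the next in-frame stop codon, which is why density before and after the 3′TC tells readthrough from other sources of 3′UTR reads. Readthrough was measured as the ribosome readthrough score (RRTS), the read density of the extension divided by that of the coding sequence (CDS), given here in percent. An RRTS of 10% means that a nucleotide of the extension held 10% of the reads of a CDS nucleotide.

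Long extensions ranged from 201 to 951 nt with a median of 261 nt, against a median of 60 nt for the shorter ones. Of the 936, 315 were above 300 nt, 124 above 400 nt and 15 above 600 nt. An extension made up a median of 27.4% of its 3′UTR in the long set and 6.40% in the shorter set. The long set was richer in UGA, which ended 58.1% of its coding sequences against 49.5% of the shorter set, and poorer in UAA (16.9% against 28.9%). UAG ended 25% and 21.6%. G was the commonest +4 nucleotide of long extensions (43.2% against 31.2%), and the 4 nt stop codon UGAG alone accounted for 30.6% of them against 18.2%. For 897 members a transcript with the same stop codon and 3′TC was found in GENCODE version 44 on hg38. In these the median GC content of the extension was 58.9%, against 50% for shorter extensions, and 45 extensions (5.02%) overlapped the annotated CDS of another transcript on the same strand.

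The sequences around the stop codons of members that carry the results below are given first, as DNA letters of the sense strand from GENCODE version 44 (hg38), with the NTC in capitals between 12 nt of context on each side. They show 4 members outside the histone genes with large rises in G418, then TTC4 and HOXD11 with high values in untreated cells, BCAP31 with a fall, and RPS24 with no read.
PRDX1: tccaagcagaagTGAgcgctgggctgt
MRPS2: agccattccctgTGAtgttcactctcc
MARCKSL1: gagcagaatgagTAGctaggtaggggc
CFL1: ggcaagcctttgTGAgccccttctggc
TTC4: taccagatacgaTGActaagccagggc
HOXD11: aaccccttatttTGAgagctccaggaa
BCAP31: aagaaggaagagTAAgggcctccttcc
RPS24: ggtctgggccacTAAtgtcactgccat
TTC4 is the member of this group in which UGA is followed by CTA (TGACTA in these letters), a hexamer long known to favor readthrough. Read in frame at the NTC on the sense strand, TGACTA was present in 3 of 897 matched long extensions (0.334%) and in 19 of 7611 matched shorter ones (0.25%). The others in the long set were NUBP2 and PHF19.

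Of the 936 members, 838 were listed in all 4 tables and 584 of these also had the study's minimum of mRNA reads in each condition. All values below are for these 584, unless stated otherwise. The 936 extensions together held 1462 and 636 reads before the 3′TC in untreated A and B and 12228 and 10221 in G418 A and B. In untreated cells most of them were nearly empty. Of the 584, 43.8% held no read before the 3′TC in untreated A and 62.2% held none in untreated B. In G418 the share without a read fell to 9.42% and 9.25%. In all, 33 members had no read in any library. The median RRTS of a member, with the libraries of a condition pooled, was 1.02% in untreated cells and 14.7% in G418, where 23 members lay above 50%. Both G418 libraries were above both untreated libraries in 477 members (81.7%), against 65.2% of all transcripts with an in-frame 3′TC and 63.5% of the shorter extensions, which hold fewer reads. Because a long extension collects more reads at the same density, members were better measured than shorter extensions. At the density of the CDS an extension would have held a median of 79.9 untreated reads in the long set and 19.2 in the shorter set.

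Summed over members, the RRTS was 1.0% in untreated A, 0.906% in untreated B, 9.16% in G418 A and 8.99% in G418 B. The G418 libraries were 9.50-fold above the untreated ones, with the fold at 9.13 between the A libraries and 9.92 between the B libraries. The groups did not overlap, and an exact two-sided permutation test gave p = 0.333, which is the smallest that 2 against 2 libraries can give. The labels call the libraries A and B, and the study describes its replicates as biological without saying what was kept separate between them.

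Summed values follow the most translated members, and a pair of histone genes dominated this sum. HIST2H3A and HIST2H3C, which encode the same histone H3 protein in near-identical genes, have extensions of 588 nt and supplied 31.0% to 38.7% of all reads expected from the CDS density, depending on the library. Reads that map to both genes were kept at 1 position, so their division between the copies is uncertain. Without this pair, a choice made after seeing the data, the summed RRTS was 1.44%, 1.43%, 12.5% and 12.5% in untreated A, untreated B, G418 A and G418 B.

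Long extensions had a lower summed RRTS than shorter ones in each library. Shorter extensions stood at 2.48% and 2.31% in untreated cells and at 19% and 18.1% in G418. The ratio of long to shorter was 0.405 and 0.393 in untreated A and B, and 0.481 and 0.496 in G418 A and B, and the mean log2 ratio over 4 libraries was -1.18 ± 0.17 (SD). An exact two-sided sign-flip permutation test gave p = 0.13, the smallest that 4 libraries allow. The size of the difference rested in large part on the histone pair: without it the mean log2 ratio was -0.65 ± 0.11 (SD, 4 libraries), with the same sign in all 4. The change of this ratio from untreated to G418 was 0.29 on the log2 scale (exact permutation p = 0.333, again the smallest possible).

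Across the range of lengths the summed RRTS in G418 fell with length. Extensions of up to 50 nt had 23.5% and 21.9% in G418 A and B, those above 100 and up to 200 nt had 17.1% and 16.4%, those up to 250 nt had 15.4% and 15.1%, those up to 300 nt had 13.3% and 13.9%, and those up to 400 nt had 10.8% and 11%. The 83 extensions above 400 nt had 3.18% and 2.98% with the histone pair and 6.94% and 6.96% without it. In untreated A and B the values also fell at first, from 3.49% and 3.21% up to 50 nt to 2.87% and 2.69% at 50 to 100 nt. From 100 to 400 nt the untreated values lay between 1.28% and 1.73% in each library. Above 400 nt they were 0.381% and 0.315% in untreated A and B with the histone pair, and 1.12% and 1.10% without it. The median over members told the same order in G418, at 17.3%, 15.3%, 10.6% and 8.82% in these 4 length classes of long extensions. Just outside the 200 nt limit, extensions of 198 nt had 13.5% and 13.5% in G418 A and B, and just inside it those of 201 nt had 19.3% and 17.6% and those of 204 nt had 11.1% and 10.7%. Over single members, Spearman's rho between length and RRTS was -0.246 in G418 and -0.0361 in untreated cells (584 members, which share libraries). GC content rose with length, from a median of 48.1% at 50 to 100 nt to 61.3% at 300 to 400 nt, and its rho with RRTS in G418 among members was -0.0776 (557 matched members). Its part in the trend with length was not tested.

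**Figure D1:**
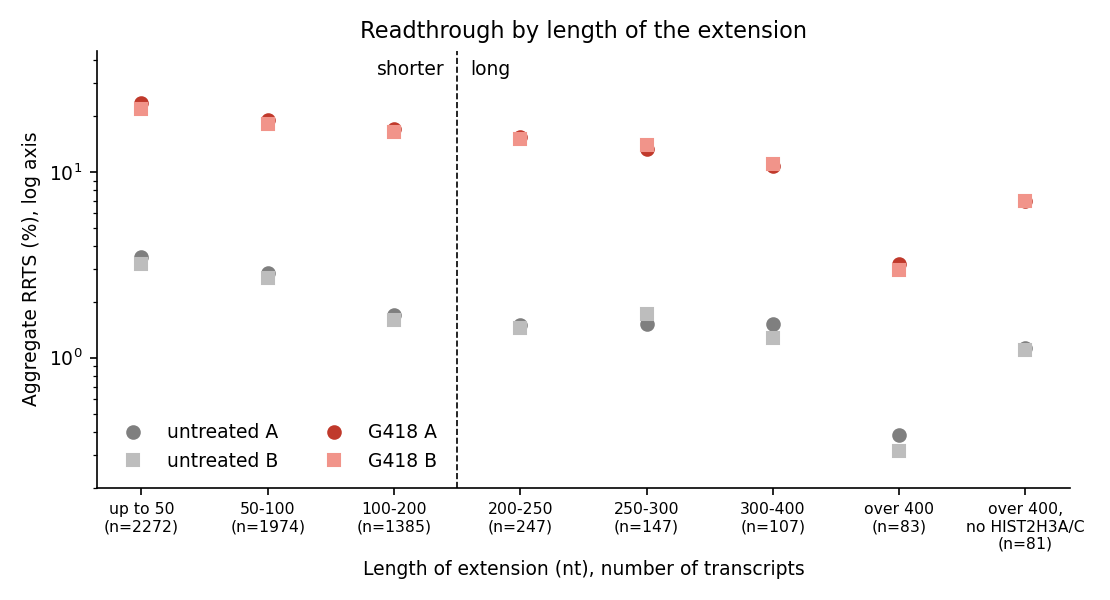
Aggregate RRTS in percent (log axis) for transcripts grouped by the length of the extension in nt, one point per library and class; the dashed line marks the 200 nt limit. G418 points descend from 23.5% and 21.9% at up to 50 nt to 10.8% and 11% at 300 to 400 nt, and the class above 400 nt is drawn with and without HIST2H3A and HIST2H3C.

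Within the long set the RRTS was highest after UGA and lowest after UAA in each library. Members with UGA (n = 335) had 1.87%, 1.93%, 16.9% and 16.9% in untreated A, untreated B, G418 A and G418 B. Members with UAG (n = 140) had 1.68%, 1.42%, 12% and 12.2%. Members with UAA (n = 109) had 0.254%, 0.190%, 2.86% and 2.58%, or 0.498%, 0.450%, 4.82% and 4.64% without the histone pair, which ends in UAA. RPS24, described below, has UAA and no read and is part of both. UGA exceeded UAA in each library, by a mean of 3.79-fold without the histone pair (exact sign-flip permutation p = 0.13, the smallest possible), and exceeded UAG by a mean of 1.31-fold (p = 0.13 by the same exact test). These were 2 of 8 contrasts made among long extensions, and with 4 libraries none of the 8 can pass 0.05.

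After UGA the +4 nucleotide separated the members further. Those with C at +4 (n = 71) had 5.42% and 5.41% in untreated cells and 30.1% and 31.0% in G418. Those with G at +4 (n = 168) had 1.06% and 1.01%, and 13.1% and 13.1%. Those with U at +4 (n = 38) had 2.76% and 2.97% in untreated cells and 30.05% and 29.8% in G418. Those with A at +4 (n = 58) had 1.79% and 2.08%, and 13.3% and 12.8%. In these summed values, U lay close to C and A close to G in G418. In untreated cells U and A lay between C and G. The median RRTS of a member in G418 was 28.8% with C, 22.1% with U, 19.4% with A and 13.7% with G. By this measure U did not lie close to C. The ratio of the summed RRTS of C to that of G was 5.09 and 5.34 in untreated A and B and 2.30 and 2.38 in G418 A and B. It was thus smaller in G418 in both pairs of libraries, and the difference of -1.16 on the log2 scale exceeded the spread within conditions (exact permutation p = 0.333, the smallest possible).

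Set against shorter extensions with the same stop codon, long ones had a lower summed RRTS in each of the 3 classes. The mean log2 ratio of long to shorter was -0.55 ± 0.06 for UGA, -0.32 ± 0.18 for UAG and -2.80 ± 0.67 for UAA (SD, 4 libraries), the last at -1.84 ± 0.49 without the histone pair. All 4 libraries had the same sign in each class (exact sign-flip permutation p = 0.13). RPS24, with UAA and no read in any library, stays in the UAA value without the pair. The median RRTS of long UAA members without the pair was 8.04% in G418, against 14.5% for shorter UAA. In untreated cells these medians were 0.354% and 0%, the other way round. The untreated medians of UGA (1.38% against 0.369%) and UAG (0.892% against 0%) were also higher in long extensions. So were those over all stop codons (1.02% against 0%). In G418 long extensions had the lower median for UGA (17.2% against 28.4%) and UAG (12.7% against 20.6%).

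**Figure D2:**
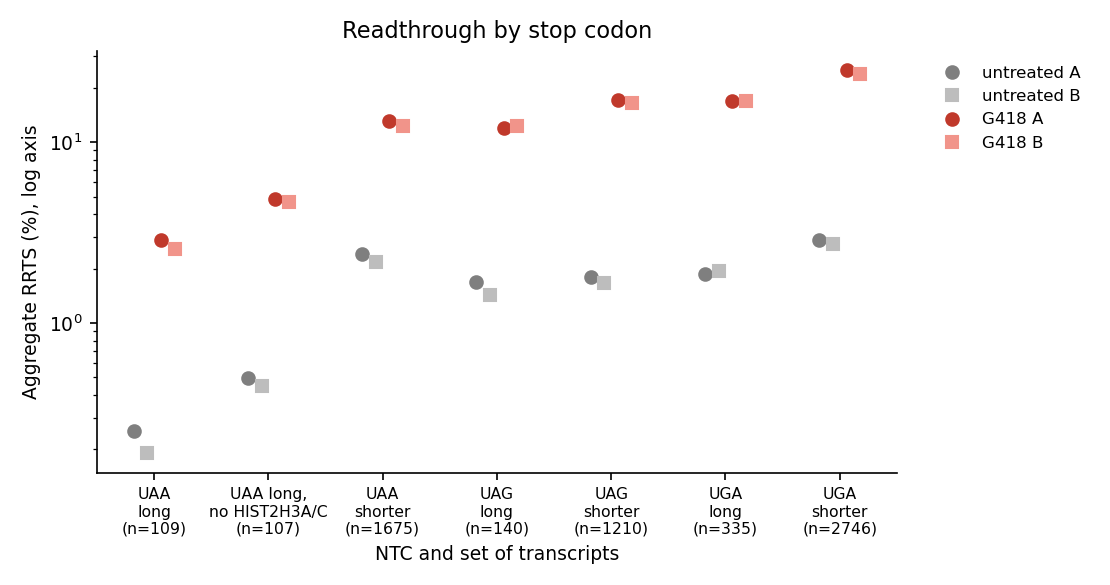
Aggregate RRTS in percent (log axis) by NTC for long and shorter extensions, one point per library, with the number of transcripts. Among long extensions UAA lies lowest, at 2.86% and 2.58% in G418, and UGA highest, at 16.9% in both G418 libraries.

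Reads before the 3′TC per CDS read were tested for each transcript with edgeR's quasi-likelihood test. The test asked whether readthrough of a given NTC differed between G418 and untreated cells. Of the 584 members, 389 had the 10 reads needed, and 334 of these (85.9%) were higher in G418 at an adjusted p-value of 0.05. Over all transcripts tested the share was 82.6%, so long extensions were called about as often as transcripts in general. One member was lower (0.257%, against 0.0707% of all transcripts). Members had a median log2 fold change of 3.24, and all transcripts together one of 3.18. In 285 of the 389 both untreated libraries held at most 3 reads, where a fitted fold change depends on the prior. For the other 104 the median was 2.55. The 10 reads were summed over all 4 libraries, and the 285 members reached them only with their G418 reads. The share called higher therefore depends on this minimum. With a minimum of 1 read, 356 of 551 members were called higher. The share over all transcripts at that minimum was not counted, so this is no result particular to long extensions. By stop codon, 206 of 235 members with UGA, 81 of 98 with UAG and 47 of 56 with UAA were higher.

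**Figure D3:**
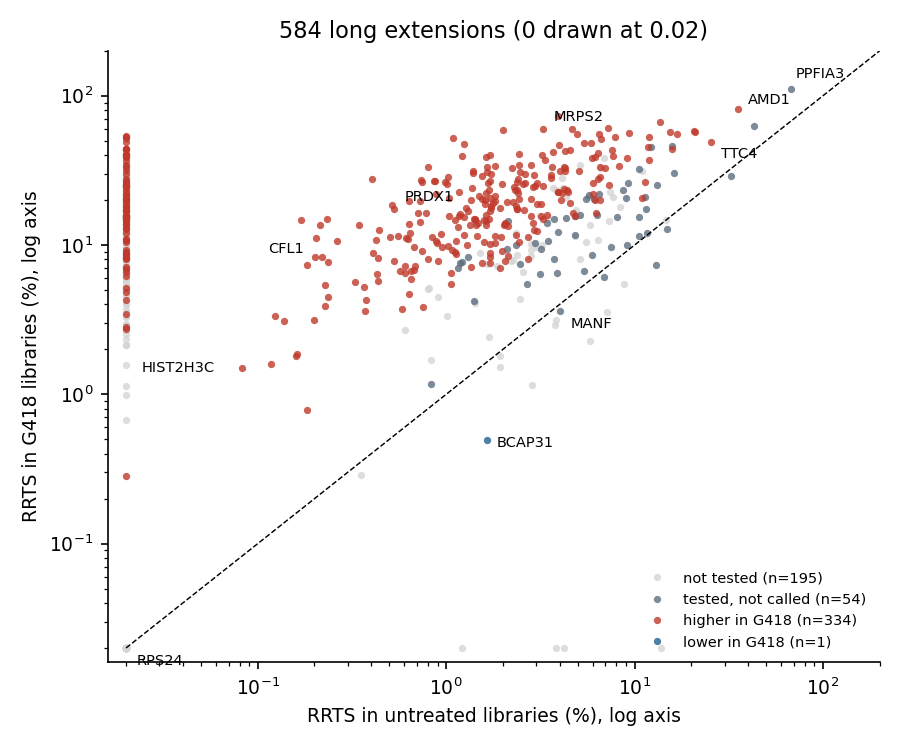
RRTS in percent of 584 long extensions in untreated (x) and G418 (y) libraries, reads of both libraries pooled, log axes, with members at 0 drawn at 0.02 and the dashed line at equal values. The 334 members called higher lie above the line and BCAP31 alone is called lower.

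The largest rises with more than 3 reads in each untreated library were found in genes of different functions. PRDX1 encodes peroxiredoxin 1, an abundant peroxidase, and its extension of 255 nt lies at chr1:45511074-45511328. It held 34 and 12 reads in untreated A and B and 747 and 642 in G418 A and B. Its RRTS was 0.520% ± 0.037 in untreated cells and 17.4% ± 0.387 in G418 (SD, n = 2), a log2 fold change of 5.02 with a standard error of 0.16. PRDX1 alone supplied 6.47% and 6.69% of all reads before the 3′TC in the G418 libraries and 2.52% and 2.16% in the untreated ones.

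MRPS2 encodes a protein of the small subunit of the mitochondrial ribosome, and its extension of 213 nt lies at chr9:135504134-135504346. Reads numbered 7 and 5 in untreated cells and 151 and 115 in G418, an RRTS of 3.49% ± 0.945 and 59.2% ± 5.2 (SD, n = 2). It has UGA followed by U, as shown above.

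MARCKSL1 encodes a membrane-associated relative of the kinase C substrate MARCKS, and has UAG followed by C. Its extension of 204 nt at chr1:32334393-32334596 held 14 and 4 untreated reads and 229 and 197 G418 reads (RRTS 1.25% ± 0.489 and 24.1% ± 0.958, SD, n = 2). HIST2H3C held 22 and 6 untreated reads and 306 and 227 G418 reads, and HIST2H3A held 27 and 13 and then 348 and 252. Against CDS densities that would have placed 11731 to 22270 reads in the extension of HIST2H3C, these reads amounted to an RRTS of 0.0750% ± 0.034 and 1.48% ± 0.154 for HIST2H3C (SD, n = 2). The log2 fold change of HIST2H3C was 4.17 with a standard error of 0.21 and that of MARCKSL1 was 4.13 with a standard error of 0.24, so the rises differed by less than their errors while the levels lay far apart. The study describes histone mRNAs as ending in a hairpin without a poly(A) tail. How much of the annotated histone extension these mRNAs hold was not measured, so their RRTS is no firm level of readthrough.

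The members with the most reads expected were these histone genes, PRDX1, RPS24 and HMGN2. RPS24, a protein of the small ribosomal subunit, had no read in its annotated extension of 441 nt (chr10:78055011-78055451) in any library. The CDS density would have placed 4432, 1489, 3552 and 2864 reads there in untreated A, untreated B, G418 A and G418 B. Taking 3 reads as the smallest detectable number, these counts of 0 allow an RRTS of up to 0.0677%, 0.201%, 0.0845% and 0.105%. HMGN2, a nucleosome-binding protein of the HMG family, held 7, 2, 76 and 49 reads in its 375 nt (RRTS 0.155% ± 0.021 and 1.83% ± 0.296, SD, n = 2). The tables use 1 annotated transcript per gene, and which 3′ ends of these mRNAs the cells used was not measured. The limits cover counting error only.

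The longest extension tested was that of TTYH3, a chloride channel family member, with 951 nt at chr7:2661740-2662690. It held 1 and 0 untreated reads and 4 and 11 G418 reads (log2 fold change 2.97, standard error 1.15, edgeR adjusted p = 0.0140). TIGD5 (942 nt) held 1, 1, 12 and 11 reads, RTL8B (810 nt) held 4, 1, 21 and 15 reads, and HIC2 (654 nt), a transcriptional repressor, held 1, 0, 5 and 8 reads. All 4 were higher in G418, and none of them overlaps another annotated CDS. In DESeq2 the adjusted p-values of TTYH3, HIC2 and TIGD5 were 0.12, 0.121 and 0.0544, and without untreated A edgeR gave 0.0518 for TTYH3. The fifth, CHD3 (750 nt), a chromatin remodeler, held 7 and 1 untreated reads and 7 and 3 G418 reads (adjusted p = 0.873). Its extension overlaps the CDS of another CHD3 transcript.

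BCAP31 was the member with a fall. It encodes an endoplasmic reticulum membrane chaperone and has UAA followed by G, with an extension of 267 nt at chrX:153700670-153700936. Reads were 12 and 15 in untreated A and B and 4 and 7 in G418 A and B. Its RRTS was 2.10% ± 1.53 and 0.518% ± 0.286 (SD, n = 2), and the untreated libraries differed from each other by more than the lower one did from G418 B. The log2 fold change was -1.75 with a standard error of 0.55 (edgeR adjusted p = 0.00266). The call was lost without untreated B (adjusted p = 0.137) and without G418 A (0.0708), and DESeq2 gave 0.0526.

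A group of members was already high in untreated cells and had small fold changes in G418. PPFIA3, a liprin scaffold protein of synapses, had an RRTS of 68.1% ± 1.21 without drug and 111% ± 3.75 with it (SD, n = 2), from 7, 3, 12 and 9 reads. It did not pass the test (log2 fold change 0.70, edgeR adjusted p = 0.28). HOXD11, a homeobox transcription factor, had 41.3% ± 6.19 and 63.2% ± 1.58 (SD, n = 2), from 30, 10, 39 and 34 reads, and the edgeR adjusted p was 0.0826. AMD1 makes adenosylmethionine decarboxylase of polyamine synthesis, and readthrough of its NTC has been described. It held 30 and 17 untreated reads and 148 and 96 G418 reads in 384 nt, an RRTS of 40.7% ± 15.1 and 81.1% ± 17.5 (SD, n = 2) and a log2 fold change of 1.18 with a standard error of 0.23 (edgeR adjusted p = 1.34e-06). Without untreated A the adjusted p was 0.0671. The study reports a peak of stalled ribosomes at this 3′TC of AMD1 in untreated cells, and a higher one in G418. How many of the reads counted here belong to that peak was not tested, so this RRTS may exceed the level of readthrough.

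TTC4, a cochaperone with tetratricopeptide repeats, combined a high start with a rise. Its extension of 285 nt at chr1:54741514-54741798 held 36 and 16 untreated reads and 69 and 52 G418 reads. The RRTS was 26.4% ± 3.06 and 49.0% ± 0.662 (SD, n = 2), a log2 fold change of 0.94 with a standard error of 0.26 (edgeR adjusted p = 0.000553, 0.0861 in DESeq2 and 0.0513 without untreated A). NUBP2, an iron-sulfur cluster assembly factor with the same TGACTA hexamer, held 5, 5, 57 and 47 reads (7.36% ± 3.29 and 51% ± 4.60, SD, n = 2). PHF19, with the same hexamer, held 2, 1, 2 and 1 reads and was not tested.

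AMD1 and TBC1D2B, whose 10, 3, 5 and 10 reads did not pass the test (edgeR adjusted p = 0.816), have extensions that overlap the CDS of another transcript of the same gene, where reads of the extension cannot be told from reads of that CDS. Among the 584, 33 members had such an overlap. Their median RRTS in untreated cells was 2.04% against 0.938% in the others. With such an overlap, 14 of the 23 tested were higher in G418, against 82.6% of all transcripts tested. The median fitted log2 fold change was 1.87 with an overlap and 3.28 without one.

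The tested members with the most reads expected that did not pass were MANF, CHMP1A and PYCR1. MANF, a secreted neurotrophic factor of the endoplasmic reticulum, held 21, 5, 13 and 18 reads. CHMP1A, a subunit of the ESCRT-III membrane remodeling complex whose extension overlaps another CHMP1A CDS, held 27, 11, 40 and 36. PYCR1, an enzyme of proline synthesis, held 2, 2, 5 and 3 reads. The edgeR log2 fold changes were -0.14, 0.38 and 0.48 with standard errors of 0.43, 0.31 and 0.96. For MANF and PYCR1 the RRTS of the 2 conditions overlapped.

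**Figure D4:**
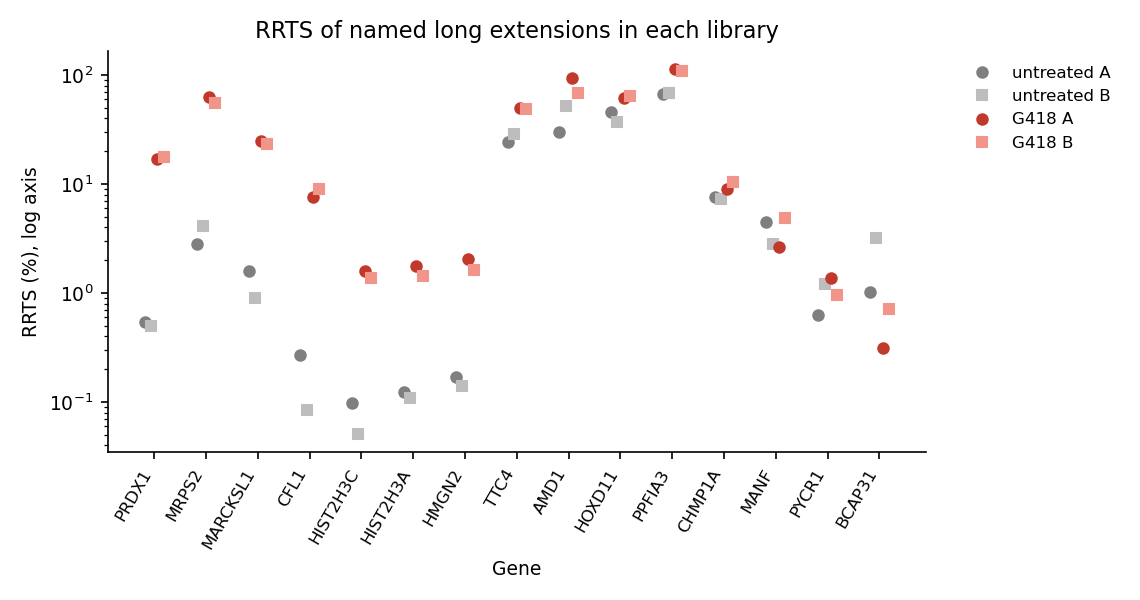
RRTS in percent (log axis) of 15 named long extensions, one point per library. From PRDX1 to HMGN2 the G418 points lie far above the untreated ones, from TTC4 to PPFIA3 both are high, and BCAP31 has its G418 points below its untreated ones.

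Gene families were read from symbol patterns. Mitochondrial ribosomal proteins had 4 long extensions among 54 genes listed, and all 4 rose: MRPS2 as above, MRPL10 (2, 1, 28 and 18 reads), MRPL14 (1, 0, 45 and 47) and MRPS18A (8, 0, 51 and 56). Cytosolic ribosomal proteins and RPL7L1, which the same pattern takes in, had 5 among 70, of which RPL22, RPL23A, RPL31 and RPL7L1 rose and RPS24 had no read. RPL22 went from 0.492% ± 0.327 to 6.37% ± 1.06, and RPL23A from 0.187% ± 0.011 to only 0.779% ± 0.010 (SD, n = 2). Solute carriers, which move small molecules across membranes, had 17 among 159, and the 5 that were tested all rose. SLC38A1, an amino acid transporter, held 7, 3, 69 and 42 reads, and SLC29A2, a nucleoside transporter, held 0, 0, 9 and 11. Zinc finger (ZNF) genes had 24 among 260, with 4 of 6 tested higher. ZNF302 was among those that were not, with 6, 2, 5 and 5 reads. EIF6, an initiation factor that keeps ribosomal subunits apart, held 0, 1, 41 and 40 reads. Each of these counts stands beside 82.6% over all transcripts.

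Genes known or tested for readthrough in mammals had 3 long extensions among the 24 listed. AMD1 is described above. DHX38, a splicing helicase, held 0, 1, 6 and 9 reads (log2 fold change 3.44, standard error 1.10, edgeR adjusted p = 0.00307), and its extension overlaps another DHX38 CDS. Without untreated A its adjusted p was 0.159, and DESeq2 gave 0.071. VDR, the vitamin D receptor, held 4, 1, 2 and 4 reads, an RRTS of 29.5% ± 8.06 and 37.3% ± 19.8 (SD, n = 2), and was not tested because it had fewer mRNA reads than the minimum in each condition.

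Beyond the first in-frame 3′TC reads dropped sharply in G418. The region after it was the whole rest of the 3′UTR, a median of 771 nt in the 936 members. Their 3′UTRs held a median of 10 in-frame stop codons. The ratios of after to before below therefore include later stop codons and do not measure passage of the first 3′TC alone. The summed density after it was 0.293% and 0.317% of the CDS density in G418 A and B, against 0.200% and 0.141% in untreated A and B. As a share of the density before it, this was 3.21% and 3.53% in G418 and 20.2% and 15.5% in untreated cells. The ratio was thus lower in both G418 libraries than in both untreated ones (exact permutation p = 0.333, the smallest possible). In shorter extensions it was 3.69% and 3.72% in G418 and 11.1% and 10.6% in untreated cells. Without the histone pair, which had no read after the 3′TC, long extensions had 2.67% and 2.89% in G418 and 16.2% and 11.9% in untreated cells. Among members with reads, density was lower after the 3′TC than before it in 514 of 530 in G418 A and in 515 of 529 in G418 B, and in 301 of 415 and 213 of 282 in untreated A and B. These counts were made for long extensions only. In the fit below the share in G418 was 88.3% of members and 86.0% of all transcripts.

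**Figure D5:**
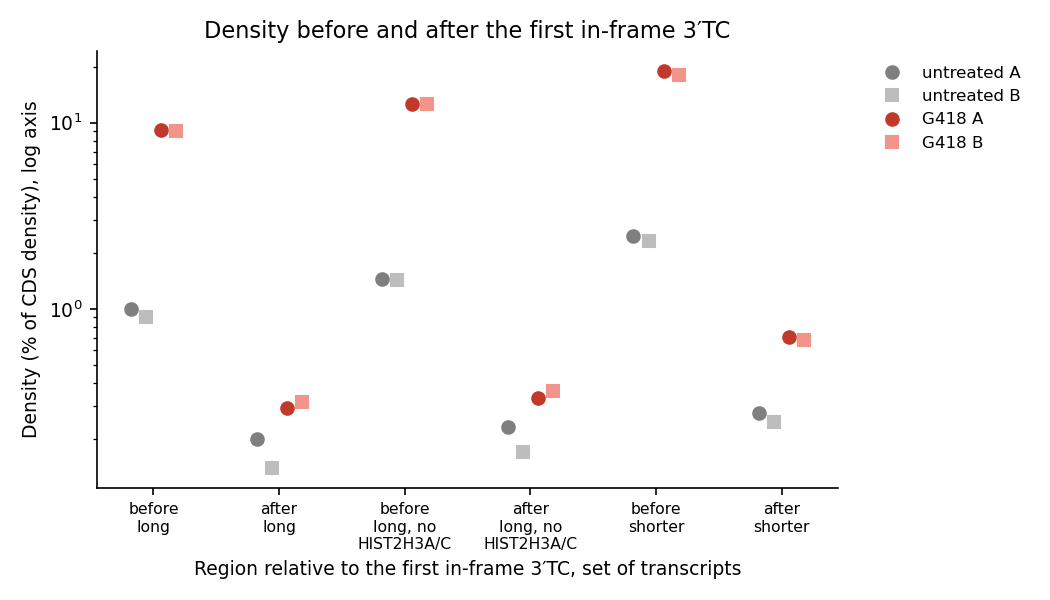
Read density as a percent of the CDS density (log axis) before and after the first in-frame 3′TC, one point per library, for long extensions, long extensions without HIST2H3A and HIST2H3C, and shorter extensions. In the long set G418 raises the region before the 3′TC to 9.16% and 8.99% while the region after it lies at 0.293% and 0.317%.

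Fitted per transcript in one model of both regions, 364 of 412 members tested (88.3%) had a lower density after the 3′TC than before it in G418, against 86.0% of all transcripts. The median log2 difference was -5.07 in members and -4.66 over all transcripts. Without G418 A the count was 156 and without G418 B 170. In untreated cells 34 members (8.25%, against 10.1% of all transcripts) passed, and the median was -2.16. It was 13 without G418 A or without G418 B. Without untreated A or without untreated B it was 0, by edgeR, with 37 members at an unadjusted p under 0.05 without untreated A and 73 without untreated B. The change of the drop from untreated to G418 was called by edgeR in 0 members and in 0.0% of all transcripts, with 54 members at an unadjusted p under 0.05 and a median of -2.75.

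Some members had more reads after the 3′TC in G418 than most. CFL1, the actin-severing protein cofilin, has UGA followed by G and an extension of 216 nt (chr11:65855120-65855335). It held 8, 1, 206 and 194 reads before the 3′TC, an RRTS of 0.179% ± 0.133 and 8.38% ± 1.01 (SD, n = 2), and 3, 3, 32 and 29 after it. RANGAP1, which activates the GTPase Ran, held 1, 2, 43 and 28 before and 4, 2, 12 and 14 after. CBX6, a Polycomb chromobox protein, held 2, 1, 25 and 12 before and 32, 12, 27 and 36 after, over 4423 nt. Their after to before ratios in G418 were 7.20%, 9.60% and 12.7%, against 5.87% in MARCKSL1. In CBX6 the untreated libraries already held 32 and 12 reads after the 3′TC against 2 and 1 before it. Its ratio in G418 therefore does not measure passage of this stop codon. Among members with at least 20 reads after the 3′TC in G418, ELMSAN1 (0, 0, 0 and 1 before, 10, 4, 11 and 9 after) and IRAK1 (2, 2, 16 and 7 before, 17, 7, 17 and 12 after) had the highest ratios, at 157% and 25.7%, and both extensions overlap the CDS of another transcript of the same gene. The sequences at the 3′TC of CFL1, RANGAP1, CBX6 and MARCKSL1, in capitals with 12 nt on each side, are shown for reference.
CFL1 3′TC: ccaaactgctttTGAtcttttgattcc
RANGAP1 3′TC: ggatttgggtttTAAcgtcttctgctg
CBX6 3′TC: ctgtgcggcgtcTGAtttctcggtgct
MARCKSL1 3′TC: cttaaggccagtTGAagatggtccctt
Among matched members the first in-frame 3′TC was UGA in 48.6%, UAA in 29.0% and UAG in 22.4%. The after to before ratio was higher where it was UGA (17.9%, 12.8%, 3.26% and 3.59% in untreated A, untreated B, G418 A and G418 B) than where it was UAA (12.3%, 7.76%, 1.84% and 1.91%), in all 4 libraries, with a mean ratio of 1.68 (exact sign-flip permutation p = 0.13, the smallest possible). Where it was UAG the values were 16.7%, 13.3%, 2.14% and 2.16%, so that UGA exceeded UAG in G418 but not in untreated B.

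Reads after the 3′TC per CDS read were also compared between conditions, in the 83 members with at least 10 such reads. Of these, 15 (18.1%) were higher in G418, against 43.3% of all transcripts tested, and 1 was lower, against 0.439%. The median log2 fold change was 0.44 in members and 1.61 over all transcripts. MARCKSL1 (3, 3, 36 and 34 reads) and PPP2R1A, a scaffold subunit of protein phosphatase 2A (3, 0, 31 and 14), were among those higher, and so was CFL1. KPNA1, an importin, went from no untreated read to 12 and 10. The member that was lower was AMD1, with 11, 4, 9 and 3 reads after the 3′TC and 257, 85, 407 and 359 CDS reads. Per CDS read this was a log2 fold change of -1.46 (standard error 0.61, edgeR adjusted p = 0.0416), while its reads before the 3′TC rose. The value is a fall relative to the CDS, whose own counts rose by 0.81 on the log2 scale. Fewer members were called higher in each fit without 1 library, but such a fit leaves 1 library in a group. The members tested also fell, to 47 without G418 A, 46 without G418 B, 57 without untreated A and 74 without untreated B. Whether the calls rest on single libraries was therefore not tested. PPP2R1A, KPNA1 and NUBP2 are not among the members taken by the naming rule and were chosen after their values were seen. PHF19 and the gene family members other than MRPS2 and RPS24 also lie outside that rule. No rule fixed which of them were given with values.

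The coding sequences of the same transcripts changed less. Of 833 members tested on deposited CDS counts, 63 (7.56%) were higher and 21 (2.52%) lower in G418, against 5.31% and 3.21% of all transcripts, and the median log2 fold change was 0.04. PRDX1 had 14173, 5535, 9956 and 8291 CDS reads in untreated A, untreated B, G418 A and G418 B, and its CDS counts fell by 0.48 on the log2 scale (standard error 0.08, edgeR adjusted p = 0.000106) while its extension rose. HIST2H3C (-0.39) and EIF6 (-0.51) also fell. AMD1 CDS counts rose by 0.81 on the log2 scale (standard error 0.13, edgeR adjusted p = 0.000133). Whether the counts rest on single libraries was not tested, as a fit without 1 library leaves 1 library in a group. The counts did change in such fits. Those higher numbered 10 without G418 A, 14 without G418 B and 139 without untreated B, and those lower numbered 0 without G418 A, 0 without G418 B, 85 without untreated A and 55 without untreated B.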

How the data were processed

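Ribosome profiling libraries of 2 untreated and 2 G418-treated HEK293T cultures were analysed, grouped by the labels. The authors removed adapters and noncoding RNA, aligned RPFs to hg38 with STAR guided by GENCODE version 30, kept 1 alignment for a read with several, and tabulated RPFs of 28 to 35 nt on 1 transcript per gene. The CDS counts were deposited by the authors as whole numbers without normalization. The RPM values were scaled by the authors to the mapped reads of each library; dividing by the smallest step gave whole reads for 100% of values, and these reads were used for all RRTS values.

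The CDS length left out 18 nt at the start and 15 nt at the end, and the extension left out the 6 nt after the NTC. Transcripts had to be in all 4 tables with at least 128 mRNA reads per condition. Minimums of reads before or after the 3′TC were summed over the 4 libraries. Reads before or after the 3′TC were tested with edgeR's quasi-likelihood test (offset log of CDS reads plus 0.5, at least 10 reads, at least 15 nt after the 3′TC), both regions in 1 model with the library as block, and CDS counts with TMM normalization and filterByExpr. p-values were adjusted by Benjamini-Hochberg over all transcripts tested, at 0.05, and standard errors were derived from the F statistics. Single values per library were compared by exact permutation tests.

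The members and gene lists were chosen with earlier results of these data known. Named genes were the 5 members with the most reads expected, the 5 longest tested, the 5 largest rises with more than 3 reads in each untreated library, up to 3 falls, the 5 highest untreated RRTS with at least 10 reads, the 5 highest after to before ratios in G418 with at least 20 reads after, the 3 with most expected reads that did not pass, and known readthrough genes (for VDR without the read minimum); 1 member taken by this rule is not reported here. Some members were also named outside this rule, as stated above. Alternatives were DESeq2, other minimums, offsets and length limits, a replicate block, single libraries left out, and members left out. Sequences and coordinates were read from GENCODE version 44 on hg38 for transcripts with the same CDS length, 4 nt stop codon and first 3′TC. Statistics were run in R 4.3.3 with edgeR 4.0.16 and, as the alternative, DESeq2 1.42.0. Tables and figures were made in Python 3.11.15 with pandas 2.3.3 and with matplotlib 3.10.9.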

Additional observations from a re-analysis of the deposited data

How the results depend on the processing

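The summed RRTS of members was higher in G418 under each alternative run, and the number of members called varied with the test, the minimum of reads and the libraries used. Of 334 members higher before the 3′TC, DESeq2 called 217, a replicate block 283, and fits without 1 library 229 to 324. The count was 579 with extensions above 150 nt and 100 above 300 nt, which change the number of members. Reads after the 3′TC, 15 higher in the main test, gave 4 in DESeq2, 9 with at least 20 reads, 7 with no minimum, 5 with a replicate block, 57 above 150 nt, 0 above 300 nt (0 of 15 members also at an unadjusted p under 0.05), and 1 to 7 without 1 library. The drop at the 3′TC in G418, 364 members, was 663 above 150 nt, 111 above 300 nt and 156 to 351 without 1 library. In untreated cells, 34 members, it was 80 with at least 20 reads, 9 with at least 5, 87 with the replicate block in place of the library block, 69 above 150 nt, 11 above 300 nt and 0 to 13 without 1 library. The change of the drop, 0 members, was 19 with at least 20 reads and 13 with the replicate block in place of the library block. Members with higher CDS counts, 63, numbered 19 in DESeq2, 87 with a replicate block, 100 above 150 nt, 18 above 300 nt and 10 to 139 without 1 library. Those with lower CDS counts, 21, numbered 12 in DESeq2, 36 with a replicate block, 39 above 150 nt, 6 above 300 nt and 0 to 85 without 1 library. Beyond the construction of each alternative, the cause of these shifts was not tested.

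The 9.50-fold rise of the summed RRTS was 10.9-fold with 4 times the minimum of mRNA reads, 7.80-fold without the 10 members with the most reads, 6.82-fold as a mean over transcripts, 8.70-fold above 300 nt, 10.2-fold without extensions that overlap another CDS, and, both chosen after seeing the data, 8.75-fold without the histone pair and 8.13-fold without the 5 members with the most reads expected. It was 9.04-fold to 10.0-fold without 1 library. The log2 ratio of long to shorter extensions, -1.18, stayed negative in all alternatives. It was -1.36 with 4 times the minimum of mRNA reads, -0.65 without the 10 members with the most reads, -0.95 as a mean over transcripts, -0.89 with the limit at 150 nt, -1.98 at 300 nt, -0.65 without the histone pair, -0.51 without the 5 members with the most reads expected, -2.80 within UAA, -0.32 within UAG, -0.55 within UGA and -1.23 to -1.12 without 1 library. The after to before ratio in G418, 3.37%, was 3.04% with 4 times the minimum of mRNA reads, 3.0% without the 10 members with the most reads after the 3′TC, 6.38% as a mean over transcripts, 3.81% above 300 nt, 2.78% without the histone pair and 3.21% to 3.53% without 1 library. In untreated cells, 17.8%, it was 23.4% as a mean over transcripts, 24.2% above 300 nt, 14.0% without the histone pair and 15.5% to 20.2% without 1 library.

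The replicate letters are shared by the groups, but nothing in the labels says what a letter shares. The correlation of same-letter CDS deviations was 0.136 over 8494 transcripts, and with 2 pairs this does not show pairing. With the replicate block, TTYH3 and HIC2 lost their calls (adjusted p = 0.0991 and 0.0927). For single named members, 14 alternatives lost a call, 2 gained one (both IRAK1) and 233 kept theirs. In untreated B, the library with the fewest reads, 62.2% of members held no read before the 3′TC, so their readthrough was not detectable there.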
